A study of Mus musculus and Homo sapiens with 10 samples.

Results

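L1 retrotransposons copy themselves through an RNA that is reverse transcribed into the genome, and cells carry a set of enzymes and RNA-binding proteins that limit this cycle. The 10 genes described here are MOV10, ZC3HAV1, ADAR, APOBEC3B, APOBEC3C, SAMHD1, TREX1, RNASEH2A, RNASEH2B and RNASEH2C. They were chosen by name as known L1 restriction factors, not by their measured values, although earlier results of these data were known. All 10 were found among the 22060 gene symbols of the human RNA-seq table. Where a symbol had several RefSeq entries, the entry with the highest mean over both libraries stood for the gene.

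The study asked how L1 elements are controlled in embryonic stem (ES) cells, and holds 10 samples in all, most of them from mouse. The values below come from the 2 human RNA-seq libraries, both from cytoplasmic poly(A) RNA of H1, an established human ES cell line, at passage 69. The control library came from H1 cells transduced with an sh-empty lentivirus, which carries no targeting hairpin. The knockdown library came from H1 cells transduced with sh-DNMTs, lentiviral hairpins against the DNA methyltransferases. Both groups had therefore been through transduction, and untransduced H1 cells were not analysed here. With 1 library per group there was no replicate check and no test between the conditions, and every interval below covers counting error only. An interval that leaves out a ratio of 1 says that these 2 libraries differed beyond counting error, not that the conditions did.

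The factors act at successive steps of the L1 cycle. MOV10 and the zinc finger antiviral protein ZC3HAV1 bind L1 RNA in the cytoplasm, and ADAR edits adenosine to inosine in double-stranded RNA. The APOBEC3 proteins are cytidine deaminases of single-stranded nucleic acid, SAMHD1 breaks down the deoxynucleotides that reverse transcription uses, and TREX1 degrades cytosolic DNA. RNase H2, made of a catalytic subunit and a pair of accessory subunits, removes RNA from RNA:DNA hybrids, and both restricting and promoting effects on L1 have been reported for it. Inherited loss of TREX1, SAMHD1, ADAR or a subunit of RNase H2 causes Aicardi-Goutières syndrome, an inflammatory disease driven by the cell's own nucleic acids.

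The libraries held 100921087 reads (control) and 92478094 reads (knockdown), worked out from the deposited values. DNMT1, DNMT3B and DNMT3A were each lower in the knockdown library. DNMT1, the maintenance methyltransferase, stood at 24.5 RPKM (reads mapped to an entry, scaled to its length and to the library total) in the control and 6.95 in the knockdown, and the de novo enzyme DNMT3B at 181 and 75.9. DNMT3A, the other de novo enzyme, stood at 17.9 and 12.2 RPKM, 1.47-fold lower and so short of the 1.5-fold used below. All 10 pluripotency markers looked at were above the filter on low values, with summed levels of 2125 and 1849.6 RPKM, and POU5F1 alone stood at 921 and 893. Of these markers 3 were at least 1.5-fold lower in the knockdown library and 2 higher, beside 13.0% lower and 13.0% higher among all genes tested. On the lower side were SOX2 at 107 and 66.4 RPKM, TDGF1 at 418 and 144 and PRDM14 at 22.1 and 12.3. On the higher side were NANOG at 17.3 and 32.6 and L1TD1 at 80.3 and 223. Reads in the 331 listed copies of L1HS, the youngest human L1 lineage, numbered 5762 in the control and 17828 in the knockdown, a ratio of 3.38 per library total (95% interval 3.28 to 3.48). The ratio was 2.45 for L1PA2, 1.60 for L1PA3, 1.16 for L1PA4, 1.42 for L1PA5, 1.12 for L1PA6 and 1.01 for L1PA7, lineages of increasing age. The ratios thus did not fall at every step, since L1PA5 stood above the younger L1PA4. How reads with several positions were placed was not given, so the split of reads between lineages is uncertain to that extent.

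All 10 factors were detected in both libraries. The number of reads per factor and library ranged from 177 for TREX1 to 31646 for ADAR, both in the control. All of them passed the filter of a mean RPKM of at least 0.5, and each would have passed in either library alone, since the lowest level was 1.16 RPKM. In the control the levels spanned 41.3-fold, from TREX1 to ADAR at 47.8 RPKM, and in the knockdown 22.4-fold, from TREX1 at 1.83 to RNASEH2A at 41.1. The summed level of the 10 was 147 RPKM in control cells and 133 in the knockdown.

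**Figure D1:**
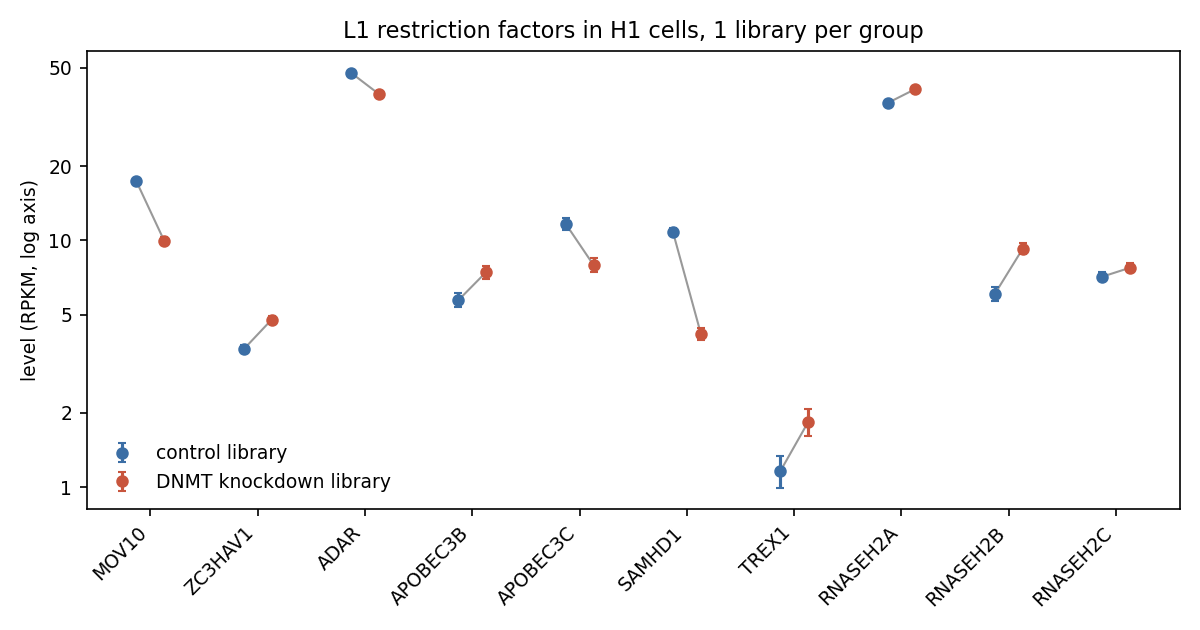
Level of each factor in RPKM (log axis) in the control library (blue) and the DNMT knockdown library (red), with exact Poisson 95% intervals that cover counting error only and a grey line joining the 2 values of a gene. MOV10, ADAR, APOBEC3C and SAMHD1 stood lower in the knockdown library, and the other 6 stood higher.

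Differences are given on the scale log2((knockdown RPKM + 0.5)/(control RPKM + 0.5)), which understates the change of genes with low values. On this scale 4 factors were below 0 and 6 above, with a median of 0.15, beside 48.9% of all 13043 genes tested below 0 and a median of 0.01. Past 1.5-fold (0.58 on this scale) were 2 of the 10, MOV10 and SAMHD1, both lower in the knockdown library. Among all genes tested 13.0% were at least 1.5-fold lower, 13.0% at least 1.5-fold higher and 26.0% either. The share of the factors past 1.5-fold in either direction, 20%, was thus close to that of all genes. On the plain ratio of the deposited values, with no pseudocount, RNASEH2B and TREX1 were also past 1.5-fold, on the higher side. Their plain ratios were 1.52 and 1.58, with intervals that span 1.5-fold, and by that measure 16.5% of all genes tested were lower and 15.8% higher. Past 2-fold was SAMHD1 alone, as were 4.97% of all genes on the lower side.

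**Figure D2:**
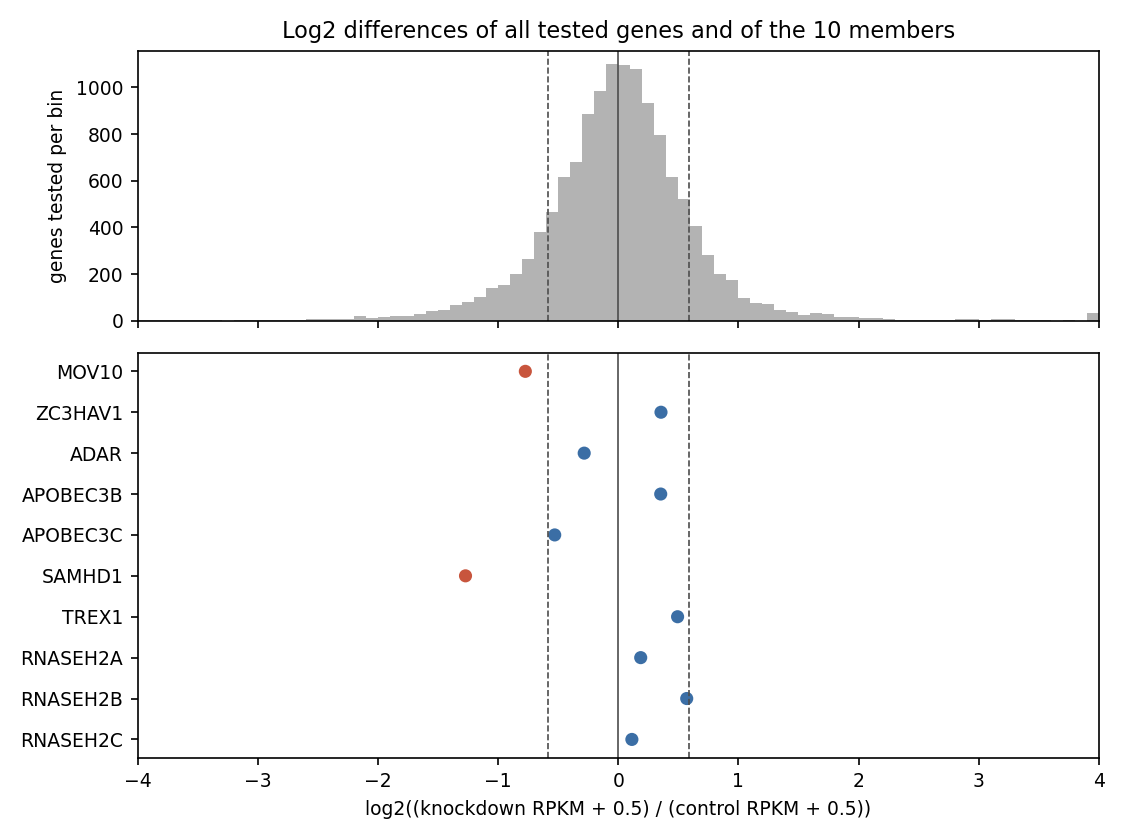
Top, number of tested genes per bin of 0.1 of the log2 difference between the knockdown and control libraries, with genes beyond 4 in either direction gathered in the outermost bins. Bottom, the same difference for each factor, red where it was past 1.5-fold (dashed lines) and blue otherwise: SAMHD1 at -1.27 and MOV10 at -0.77 lay outside the lines, and RNASEH2B at 0.57 lay just inside.

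SAMHD1 had the largest difference of the 10. The single entry of this deoxynucleotide triphosphohydrolase, NM_015474, stood at 10.8 RPKM in control cells (95% interval 10.5 to 11.2, 3484 reads) and 4.19 in the knockdown (3.96 to 4.43, 1236 reads). The level in the knockdown library was 38.7% of control, or 2.58-fold lower (2.42 to 2.76). Of all genes tested, 2.64% had a more negative difference. By level it was the fifth of the 10 factors in the control and the ninth in the knockdown, where it exceeded TREX1. In bulk RNA, fewer cells with the transcript and less transcript per cell cannot be told apart. SAMHD1 is known for its high level in myeloid and other blood cells, so their markers were read beside it. The 6 blood cell markers summed to 0.457 RPKM in control cells and 1.75 in the knockdown, and none was at 0 in either library. Fetal globin, HBG1, was the highest of them in the knockdown library, with 6 and 49 reads. PTPRC, the pan-leukocyte marker CD45, had 7 and 72 reads, and SPI1, the myeloid transcription factor PU.1, had 10 and 32. These sums rest on few reads, and the part of blood-type cells in the level of SAMHD1 was not tested.

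The genes that supply deoxynucleotides were read beside SAMHD1. Of 8 genes of nucleotide supply, all tested, 1 was at least 1.5-fold lower, 1 was higher and 6 were neither, with a median of 0.10. The shares over all genes tested were 13.0% lower and 13.0% higher. RRM2, the S-phase small subunit of ribonucleotide reductase, stood at 14.2 RPKM in control cells and 43.2 in the knockdown, a ratio of 3.04 (95% interval 2.94 to 3.15). RRM2B, the p53-inducible small subunit, stood at 29.0 and 9.73 RPKM, a ratio of 0.335 (0.324 to 0.346). In the control RRM2B was thus the more abundant small subunit per length, and in the knockdown RRM2 was. The large subunit RRM1 stood at 28.3 and 29.4 RPKM, and thymidylate synthase, TYMS, at 28.4 and 30.1 RPKM.

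TREX1, the main cytosolic DNA 3′ exonuclease, was the least abundant factor in both libraries. Its higher entry, NM_033629, stood at 1.16 RPKM in control cells (0.993 to 1.34, 177 reads) and 1.83 in the knockdown (1.62 to 2.07, 257 reads). The ratio was 1.58 (1.30 to 1.93), and the other entry, NM_016381, gave 1.48 (1.24 to 1.78). The intervals of both entries span 1.5-fold, so the depth does not place TREX1 on either side of it. TREX1 overlaps the neighbouring gene ATRIP, which encodes the partner of the ATR kinase, and how reads shared by overlapping genes were handled was not given in the sources used here. ATRIP stood at 3.68 and 4.62 RPKM, a ratio of 1.25 (1.15 to 1.37).

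Among the factors that act on L1 RNA, MOV10 was lower and ZC3HAV1 higher in the knockdown library. MOV10, an RNA helicase that associates with L1 ribonucleoprotein particles, stood at 17.4 RPKM in control cells (16.9 to 17.8, 6199 reads) and 9.95 in the knockdown (9.61 to 10.3, 3255 reads). It was 1.75-fold lower (1.67 to 1.82), and 8.00% of all genes tested had a more negative difference. Its other entry, NM_020963, gave nearly the same value, 1.75-fold (1.67 to 1.82), from 6233 and 3272 reads. ZC3HAV1, which binds CpG-rich RNA and promotes its decay, stood at 3.62 RPKM in control cells (3.48 to 3.76, 2625 reads) and 4.77 in the knockdown (4.60 to 4.94, 3171 reads), a ratio of 1.32 (1.25 to 1.39). Its other entry, NM_024625, was lower in level, at 2.09 and 2.86 RPKM, with a ratio of 1.37 (1.19 to 1.59), so the difference had the same direction in both entries.

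ADAR, the double-stranded RNA adenosine deaminase, was the most abundant factor in the control. Its highest entry, NM_001025107, stood at 47.8 RPKM in control cells (47.3 to 48.3, 31646 reads) and 39.2 in the knockdown (38.7 to 39.7, 23770 reads). The level was 1.22-fold lower (1.20 to 1.24), and 27.2% of all genes tested had a more negative difference. ADAR makes a long interferon-inducible form and a short constitutive form from different promoters. The 5 ADAR entries stood between 45.8 and 47.8 RPKM in control cells and between 37.6 and 39.2 in the knockdown, with ratios of 0.818 to 0.822. The entries gave nearly equal values, so these values do not tell the forms apart. ADARB1 and ADARB2, the other ADAR family genes, did not reach the filter and are given among the other observations.

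The APOBEC3 genes lie side by side in one cluster and arose by duplication, so reads of near-identical stretches could have been split or shared between them, and their values are uncertain to that extent. APOBEC3B, a nuclear deaminase with a pair of catalytic-type domains, stood at 5.72 RPKM in control cells (5.35 to 6.10, 886 reads) and 7.44 in the knockdown (7.00 to 7.90, 1057 reads), a ratio of 1.30 (1.19 to 1.43). APOBEC3C, a single-domain member, stood at 11.7 RPKM in control cells (11.1 to 12.3, 1329 reads) and 7.94 in the knockdown (7.41 to 8.50, 828 reads). It was 1.47-fold lower (1.35 to 1.61), an interval that spans 1.5-fold. The levels of these deaminases thus differed in opposite directions. APOBEC3C was 2.04 times as abundant as APOBEC3B per length in the control and 1.07 times in the knockdown, where their Poisson intervals overlapped.

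The rest of the deaminase family was read beside this pair. Of 9 other genes of the family, 4 reached the filter, 3 of them below 0 and 1 above, and none was past 1.5-fold. The share of all genes tested past 1.5-fold in either direction was 26.0%. APOBEC3D was the highest, at 2.48 RPKM in control cells and 1.73 in the knockdown (631 and 402 reads), a ratio of 0.695 (0.612 to 0.789). APOBEC3A had an entry at 1.15 and 1.51 RPKM with a ratio of 1.31 (1.06 to 1.61), and an entry under another Ensembl identifier at 2.05 and 2.62 with a ratio of 1.28 (1.07 to 1.53). The remaining genes of the cluster, named after their values were seen, were all lower in the knockdown library. APOBEC3F had a ratio of 0.752 (0.646 to 0.874), APOBEC3H 0.728 (0.556 to 0.948) and APOBEC3G 0.322 (0.209 to 0.485), the last from 105 and 31 reads. APOBEC3A and APOBEC3B, neighbours of high sequence identity, were thus on the higher side, and APOBEC3C, D, F, G and H on the lower.

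**Figure D3:**
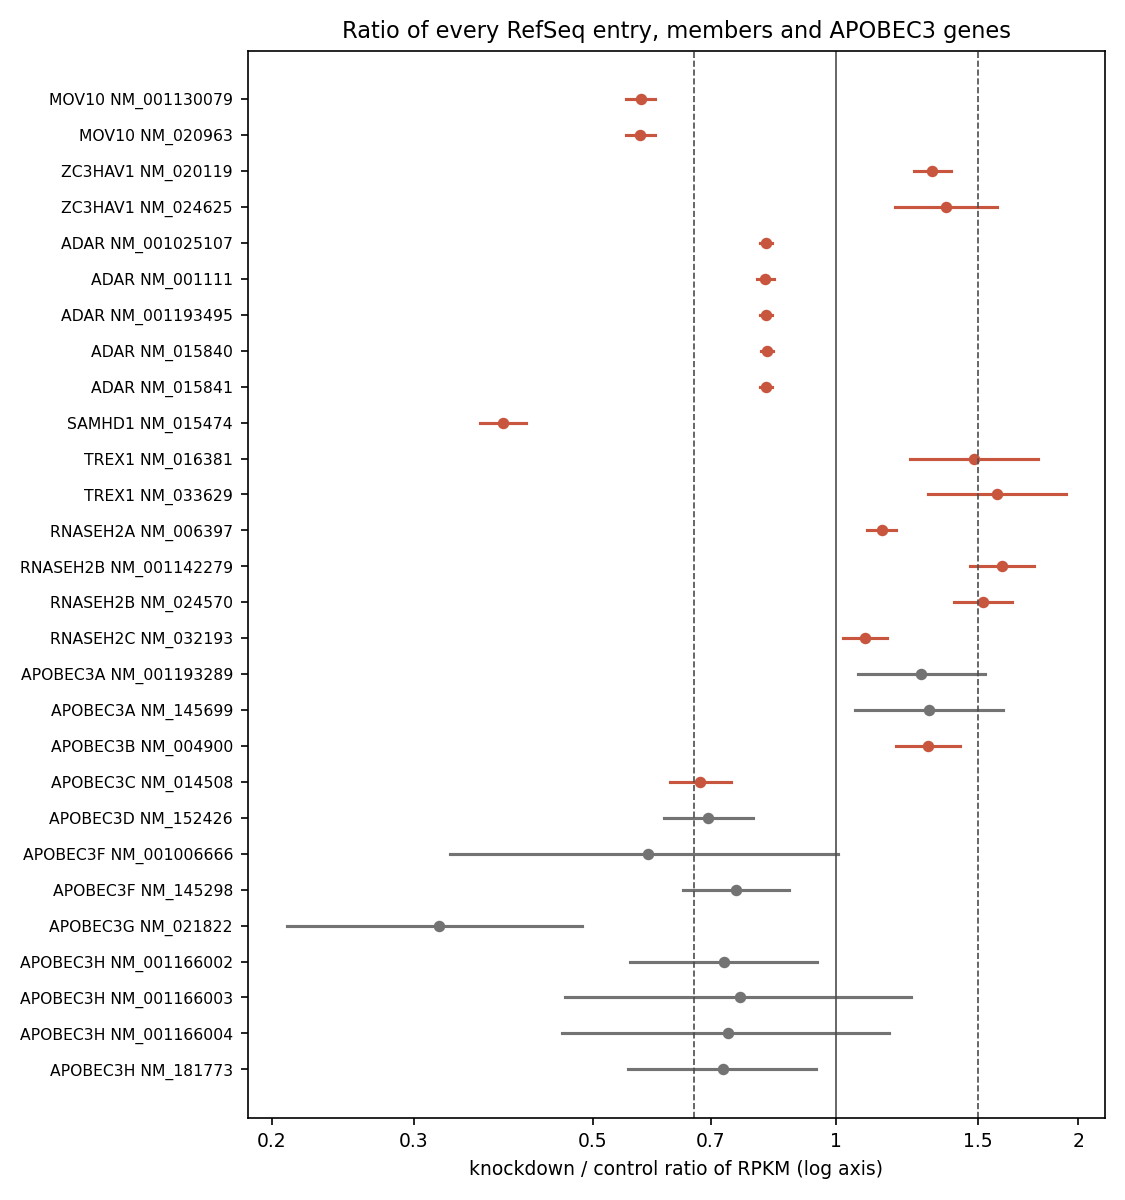
Ratio of RPKM, knockdown over control (log axis), for every RefSeq entry of the factors (red) and of the other APOBEC3 genes (grey), with exact binomial 95% intervals that cover counting error only. The solid line marks a ratio of 1 and the dashed lines 1.5-fold; the entries of one gene lie on the same side of 1, with SAMHD1 at 0.387 the lowest of the factors and TREX1 at 1.58 among the highest.

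The subunits of RNase H2 were all higher in the knockdown library, by unequal amounts. RNASEH2A, the catalytic subunit, stood at 36.0 RPKM in control cells (34.9 to 37.1, 4173 reads) and 41.1 in the knockdown (39.9 to 42.3, 4360 reads), a ratio of 1.14 (1.09 to 1.19). RNASEH2B, the accessory subunit that carries a PCNA-binding motif, stood at 6.07 RPKM in control cells (5.70 to 6.46, 988 reads) and 9.25 in the knockdown (8.77 to 9.75, 1380 reads), a ratio of 1.52 (1.40 to 1.66). RNASEH2C, the other accessory subunit, stood at 7.12 RPKM in control cells (6.81 to 7.44, 2002 reads) and 7.75 in the knockdown (7.41 to 8.09, 1995 reads), a ratio of 1.09 (1.02 to 1.16). The interval of RNASEH2B did not overlap those of the other subunits. The interval of RNASEH2B also spans 1.5-fold, so the depth does not place it on either side. On the scale with the pseudocount it was at 0.57, just short of 1.5-fold, and 13.7% of all genes tested had a higher difference. Its other entry, NM_001142279, gave a ratio of 1.61 (1.47 to 1.76) from 787 and 1161 reads.

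The protein complex holds one copy of each subunit, while the transcript levels per length were unequal. RNASEH2A exceeded RNASEH2B 5.93-fold in the control and 4.44-fold in the knockdown, and RNASEH2C 5.06-fold and 5.30-fold. RNASEH2C exceeded RNASEH2B 1.17-fold in the control, whereas RNASEH2B exceeded RNASEH2C 1.19-fold in the knockdown. RNASEH1, the single-subunit enzyme of the same activity, stood at 10.1 and 12.5 RPKM, a ratio of 1.23 (1.12 to 1.35), and is named after its values were seen.

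The order of the factors by level differed between the libraries. In the control it ran ADAR, RNASEH2A, MOV10, APOBEC3C, SAMHD1, RNASEH2C, RNASEH2B, APOBEC3B, ZC3HAV1 and TREX1. Neighbours whose Poisson intervals overlapped were APOBEC3C with SAMHD1 and RNASEH2B with APOBEC3B. In the knockdown it ran RNASEH2A, ADAR, MOV10, RNASEH2B, APOBEC3C, RNASEH2C, APOBEC3B, ZC3HAV1, SAMHD1 and TREX1. There MOV10 overlapped with RNASEH2B, and APOBEC3C, RNASEH2C and APOBEC3B overlapped in turn. The largest move was that of SAMHD1. Against all symbols of the table, ADAR was above 96.2% of them in the control and 94.7% in the knockdown, SAMHD1 above 81.3% and 65.3%, and TREX1 above 48.4% and 53.8%.

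Cofactors and relatives of the factors showed differences in both directions. Of 13 such genes, 9 reached the filter, of which 1 was at least 1.5-fold lower, 1 was higher and 7 were neither, with a median of -0.09. Beside them, 13.0% of all genes tested were lower and 13.0% higher. TRIM25, the ubiquitin ligase that ZC3HAV1 needs for its activity, stood at 5.65 RPKM in control cells and 3.54 in the knockdown, a ratio of 0.627 (0.592 to 0.664), opposite in direction to ZC3HAV1. EXOSC5, a subunit of the RNA exosome, stood at 16.5 and 29.9 RPKM, a ratio of 1.81 (1.70 to 1.93). UPF1, the nonsense-mediated decay helicase reported to associate with MOV10, stood at 14.8 and 13.8 RPKM, a ratio of 0.931 (0.902 to 0.962), where MOV10 had 0.573.

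Of 21 other genes reported to repress L1, 19 reached the filter. None was at least 1.5-fold lower, 4 were higher and 15 were neither, with a median of 0.23. The shares over all genes tested were 13.0% lower and 13.0% higher. PIWIL2, a Piwi protein of the germline, stood at 3.43 RPKM in control cells and 8.13 in the knockdown, a ratio of 2.37 (2.15 to 2.61). BST2, the membrane protein tetherin, stood at 43.1 and 77.3 RPKM (1.79, 1.73 to 1.86), and DGCR8, the RNA-binding partner of DROSHA in the Microprocessor, at 6.07 and 9.98 RPKM (1.64, 1.51 to 1.79). The autophagy receptor SQSTM1 stood at 19.2 and 31.0 RPKM (1.62, 1.54 to 1.70). The most abundant were TRIM28, the corepressor KAP1, at 182 and 233 RPKM, and the splicing regulator HNRNPL at 162 and 236.

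Several of the factors, among them APOBEC3 proteins, ZC3HAV1, MOV10 and the long form of ADAR, are interferon-inducible in other cells, so interferon-induced genes were read beside them. Of 17 such genes 11 reached the filter, 9 below 0 and 2 above, with a median of -0.46, where 48.9% of all genes tested were below 0. Past 1.5-fold were 3 on the lower side and 1 on the higher, beside 13.0% and 13.0% of all genes tested. IFITM1, a membrane protein that blocks virus entry, stood at 114 RPKM in control cells and 44.4 in the knockdown (ratio 0.391, 0.375 to 0.408), and its relative IFITM3 at 80.0 and 54.5. The antiviral GTPase MX1 stood at 1.15 and 0.500 RPKM (0.435, 0.350 to 0.537) and the transcription factor IRF7 at 2.30 and 1.36 RPKM (0.592, 0.505 to 0.693). BST2, which is in this list too, was the one on the higher side. Interferon signalling itself was not measured, and any part of it in the lower levels of SAMHD1, MOV10 and APOBEC3C was not tested.

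Of 14 sensors of foreign or misplaced nucleic acid and their signalling partners, 7 reached the filter, 2 below 0 and 5 above, with a median of 0.10. None of these 7 was past 1.5-fold, beside 26.0% of all genes tested in either direction. The transcription factor IRF3 stood at 10.5 RPKM in control cells and 15.0 in the knockdown (1.42, 1.30 to 1.56), and its kinase TBK1 at 7.64 and 8.24 RPKM (1.08, 1.02 to 1.14). Some of the 7 under the filter had larger ratios from few reads, and are named after their values were seen. The adaptor STING, listed as TMEM173, had 18 and 58 reads, a ratio of 3.52 (2.04 to 6.34). The RNA sensor IFIH1, known as MDA5, had 118 and 55 reads, a ratio of 0.509 (0.362 to 0.706), and OAS2, a synthase of the activator of RNase L, had 3 and 21 reads, a ratio of 7.64 (2.28 to 40.0).

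**Figure D4:**
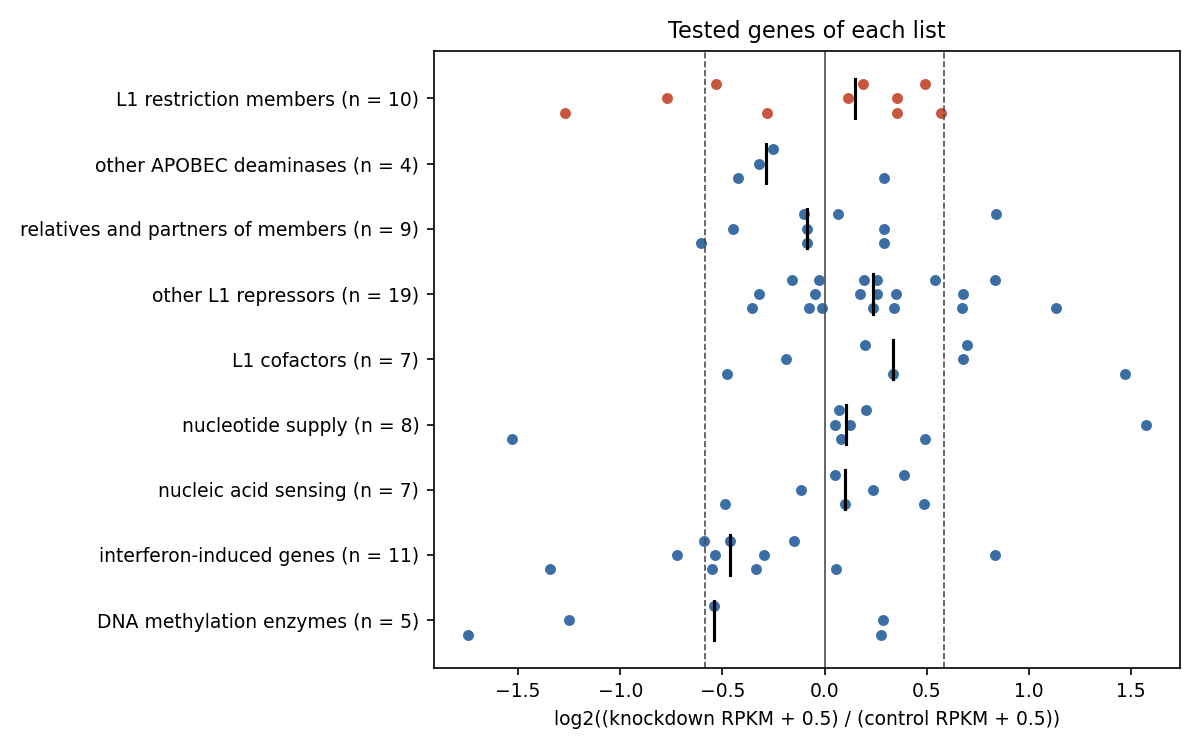
Log2 difference between the knockdown and control libraries for the tested genes of each list (points, spread vertically for legibility), with the median of the list as a black bar and 1.5-fold as dashed lines; the 10 L1 restriction factors are in red and BST2 appears in 2 lists. The factors spread from -1.27 to 0.57 around a median of 0.15, and interferon-induced genes had a median of -0.46.

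Markers of other cell types moved between the libraries as well. The 9 fibroblast or feeder markers summed to 132 RPKM in control cells and 211 in the knockdown. THY1, which ES cells also carry, stood at 35.2 and 109 RPKM, TAGLN at 36.2 and 55.1 and COL1A2 at 36.7 and 26.1, and the fibroblast markers LUM and DCN were listed at 0 in the control and had 1 read each in the knockdown. The 6 endoderm markers summed to 0.514 and 2.29 RPKM, with SOX17 listed at 0 in the control and FOXA2 at 2 and 279 reads. The 6 mesoderm markers summed to 11.4 and 7.62 RPKM, nearly all from KDR, with HAND1 listed at 0 in both. The 6 trophectoderm markers summed to 11.5 and 2.97 RPKM, nearly all from the keratin KRT7, with CGA listed at 0 in both and CGB5 in the knockdown. The 6 neuroectoderm markers summed to 33.7 and 50.9 RPKM, nearly all from nestin, NES. The part of such cells in the values of the 10 factors was not tested.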

How the data were processed

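Cytoplasmic poly(A) RNA was extracted with a DNase step, per the labels' protocols. The authors deposited RPKM values for 36865 RefSeq rows and for 9840 L1 copies, with 1 column per library. The submitters' processing notes name Bowtie 0.12.5, hg19 and mm9, without saying what each was used for. The counter, the annotation release, strand and the placing of reads with several positions were not given in the sources used here. Columns were assigned to samples by the sample titles and descriptions.

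Library totals were worked out from the L1 values and copy lengths, and turned 100% of the copies into whole reads within 0.01. For each RefSeq entry, the smallest length up to 120000 bp that gave whole reads in both libraries within 0.0005 was taken. It can be a fraction of the true length, in which case the reads are understated and the interval is too wide. Intervals (95%) are exact Poisson for levels and exact binomial (Clopper-Pearson), conditional on the summed reads, for ratios. Reads carry no molecular identifiers here, so intervals cover counting error only. This step was tested on simulated data. SciPy 1.17.1 and pandas 2.3.3 were used in Python 3.11.15.

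Genes that averaged at least 0.5 RPKM over both libraries were compared, with a pseudocount of 0.5; no test between conditions was made. Alternatives were other pseudocounts, filters, a centring, a median over entries, a fold of 2 and, chosen after seeing the data, the plain ratio. Named genes were all factors and, of the other pathway lists, the genes past 1.5-fold and the 2 highest in the control. DNMT3A, RRM1, ATRIP and the genes said to be named after their values were seen fell outside this rule. The rule did not cover the cell type markers, and those named were picked after their values were seen. The factors and lists were chosen with earlier results of these data known. Mouse files were not used here.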

Additional observations from a re-analysis of the deposited data

How the results depend on the processing

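The count of factors past 1.5-fold was 2 (MOV10 and SAMHD1). It was 4, with TREX1 and RNASEH2B added on the higher side, with a pseudocount of 0.1 and also on the plain ratio, a setting chosen after seeing the data. With a pseudocount of 0.1 the share of all genes past 1.5-fold was 31.1%, against 26.0% in the main setting. The count was 1, SAMHD1, at 2-fold. With a pseudocount of 1, no filter, a mean RPKM of at least 1 or centring on the median it was 2, and with the median over a gene's entries it was 3, with RNASEH2B added. No factor changed direction under the other pseudocounts, centring or the median over entries. The median over entries moved 6 levels by more than counting error, those of ADAR, ZC3HAV1 and RNASEH2B in both libraries, and ZC3HAV1 then stood at 2.85 and 3.82 RPKM. No paired analysis was possible because each human group has 1 library and no result comes from a test. With a single library per group no difference has a replicate check. At this depth the counting intervals of TREX1, RNASEH2B and APOBEC3C span 1.5-fold.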

Other observations

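Several relatives of the factors lay under the filter on low values and were named after their values were seen. ADARB1, an RNA editing enzyme of the ADAR family, stood at 0.637 RPKM in control cells and 0.213 in the knockdown (453 and 139 reads), a ratio of 0.335 (95% interval 0.275 to 0.406). ADARB2, a catalytically inactive relative, stood at 0.413 and 0.0737 RPKM (153 and 25 reads), a ratio of 0.178 (0.112 to 0.273). Both were lower in the knockdown library, as was ADAR. TEX19, a germline gene that limits L1 in mouse, had 84 and 15 reads, a ratio of 0.195 (0.104 to 0.340).

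Genes that L1 uses or that associate with it were read as another list. Of 7 such genes, all tested, none was at least 1.5-fold lower, 3 were higher and 4 were neither, with a median of 0.34. Over all genes tested 13.0% were lower and 13.0% higher by this measure, and 7 genes are few. L1TD1, a gene derived from the first open reading frame of L1 and active in human ES cells, stood at 80.3 RPKM in control cells and 223 in the knockdown, a ratio of 2.78 (2.72 to 2.85). The replication clamp PCNA stood at 96.6 and 157 RPKM (1.62, 1.59 to 1.66). The poly(A)-binding protein gene PABPC4 stood at 39.6 and 63.6 RPKM (1.61, 1.56 to 1.66), while the more abundant PABPC1 stood at 371 and 266 (0.718, 0.711 to 0.725). PARP1, a sensor of DNA breaks, stood at 128 and 112 RPKM (0.877, 0.865 to 0.888).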
